A study of Mus musculus with 4 samples.

Results

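Collagen chain genes encode the polypeptides that assemble by threes into collagen, the main structural protein of extracellular matrix. The members were all genes whose symbol is Col, a number, a lower-case a and a number, and 43 such genes were listed among the 23475 genes of the joined count tables. They fell into 11 fibrillar chains, 8 basement membrane chains (types IV, XV and XVIII) and 24 other chains. Messenger RNA was sequenced from cortical astrocytes of mice taken at postnatal day 5. The series compared 2 libraries titled WT with 2 titled KO. Its design names PD1fl/fl mice, with a floxed PD-1 gene, and a conditional knockout called PD1cKO-Cx3. These were taken as WT and KO, since the sample labels give only the short titles. PD-1 is an inhibitory immune receptor encoded by Pdcd1. The driver of the deletion is given only as Cx3, and no label says which cells it acts in. Strain background, sex, the number of animals per library and the way of isolating astrocytes are not given in the sources used here. Every p-value therefore rests on the spread among these 4 libraries, which may be technical.

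Fibrillar collagens (types I, II, III, V, XI, XXIV and XXVII) form the long banded fibres of connective tissue, and in brain they are known mainly from the meninges and the walls of larger vessels. Type IV collagen forms the sheet of basement membranes, which in brain lie around vessels and under the pia, where astrocyte endfeet meet them. The remaining chains include the beaded filaments of type VI, the fibril-associated chains (types IX, XII, XIV, XVI, XIX, XX and XXII) that decorate fibres, and transmembrane collagens (types XIII, XVII, XXIII and XXV). Each procollagen chain is hydroxylated and folded in the endoplasmic reticulum before it is secreted and cross-linked.

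Counts per library summed to between 14224519 and 16961160, of which collagen chains took between 0.0695% and 0.116%. Pdcd1, the targeted gene, had 20 counts in the library labelled KO 2 and 0 in each WT library. It was unlisted for KO 1 and so had 4 counts or fewer there. These values cannot check the labels, so KO and WT stand below for labels only. Ddx3y, on the Y chromosome, had 2472 counts in the library labelled KO 2 and 0 in the other libraries, and Xist had 0 in KO 2 and at least 6732 elsewhere. By these genes KO 2 was male and the other libraries were female. Any difference between KO 1 and KO 2 is therefore also one between the sexes. A fit without KO replicate 1 compares a male library with female ones, and label and sex cannot be told apart there. Astrocyte identity was visible in every library: the 12 astrocyte markers summed to between 7019 and 7993 CPM (counts scaled to library size with TMM), and 0 of them passed the test. Markers of vessel cells and microglia were also present, with higher sums in the libraries labelled KO, as given beside the results. Other brain cells contributed too. The 12 oligodendrocyte lineage markers summed to 3186 CPM in KO 1, 3338 CPM in KO 2, 2933 CPM in WT 1 and 2257 CPM in WT 2. The 12 neuron markers summed to 2492, 2614, 2781 and 3171 CPM in the same order.

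Of the 43 chains, 38 passed the filter on low counts and were tested, and 0 were called in either direction (edgeR's quasi-likelihood test, adjusted p under 0.05). Over all 17696 tested genes 3 were called, all higher, or 0.017%. At an unadjusted p under 0.05, 9 chains had higher and 1 had lower values in the libraries labelled KO, where 5.88% of all tested genes were higher and 2.41% lower. Col24a1, Col6a3 and Col17a1, among the 9, passed the filter only through the libraries labelled KO, which fixed their direction, and of the 34 chains that passed through both groups 6 were higher and 1 lower. DESeq2 called 3 of the 37 chains to which it gave an adjusted p (Col1a1, Col24a1 and Col6a3, all higher, of which only Col1a1 passed the filter through both groups), where it called 1.8% of all genes higher and 0.325% lower. The test of limma-voom called 0 chains, against 0.141% of all genes higher.

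The levels themselves are plotted for every chain and library. Compared per length of exon, Col9a3, which encodes a chain of the fibril-associated type IX collagen, had the highest level of all 43 chains in each of the 4 libraries, with a mean of 39.8 CPM per kb. It was followed by Col4a1 (10.8 CPM per kb), Col16a1 (10.01), Col4a2 (9.63), Col9a1 (7.33), Col9a2 (7.04) and Col4a5 (6.41), then by Col11a1 (4.64), Col3a1 (4.23), Col5a2 (3.96) and Col1a1 (3.92). Below Col9a3 the order changed from library to library. Col1a1 ranked at position 4 in the library labelled KO 1 and at positions 14, 18 and 20 in the libraries labelled KO 2, WT 1 and WT 2, so neighbours in this order are not separated beyond their spread. Exon lengths are unions over all annotated transcripts.

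**Figure D1:**
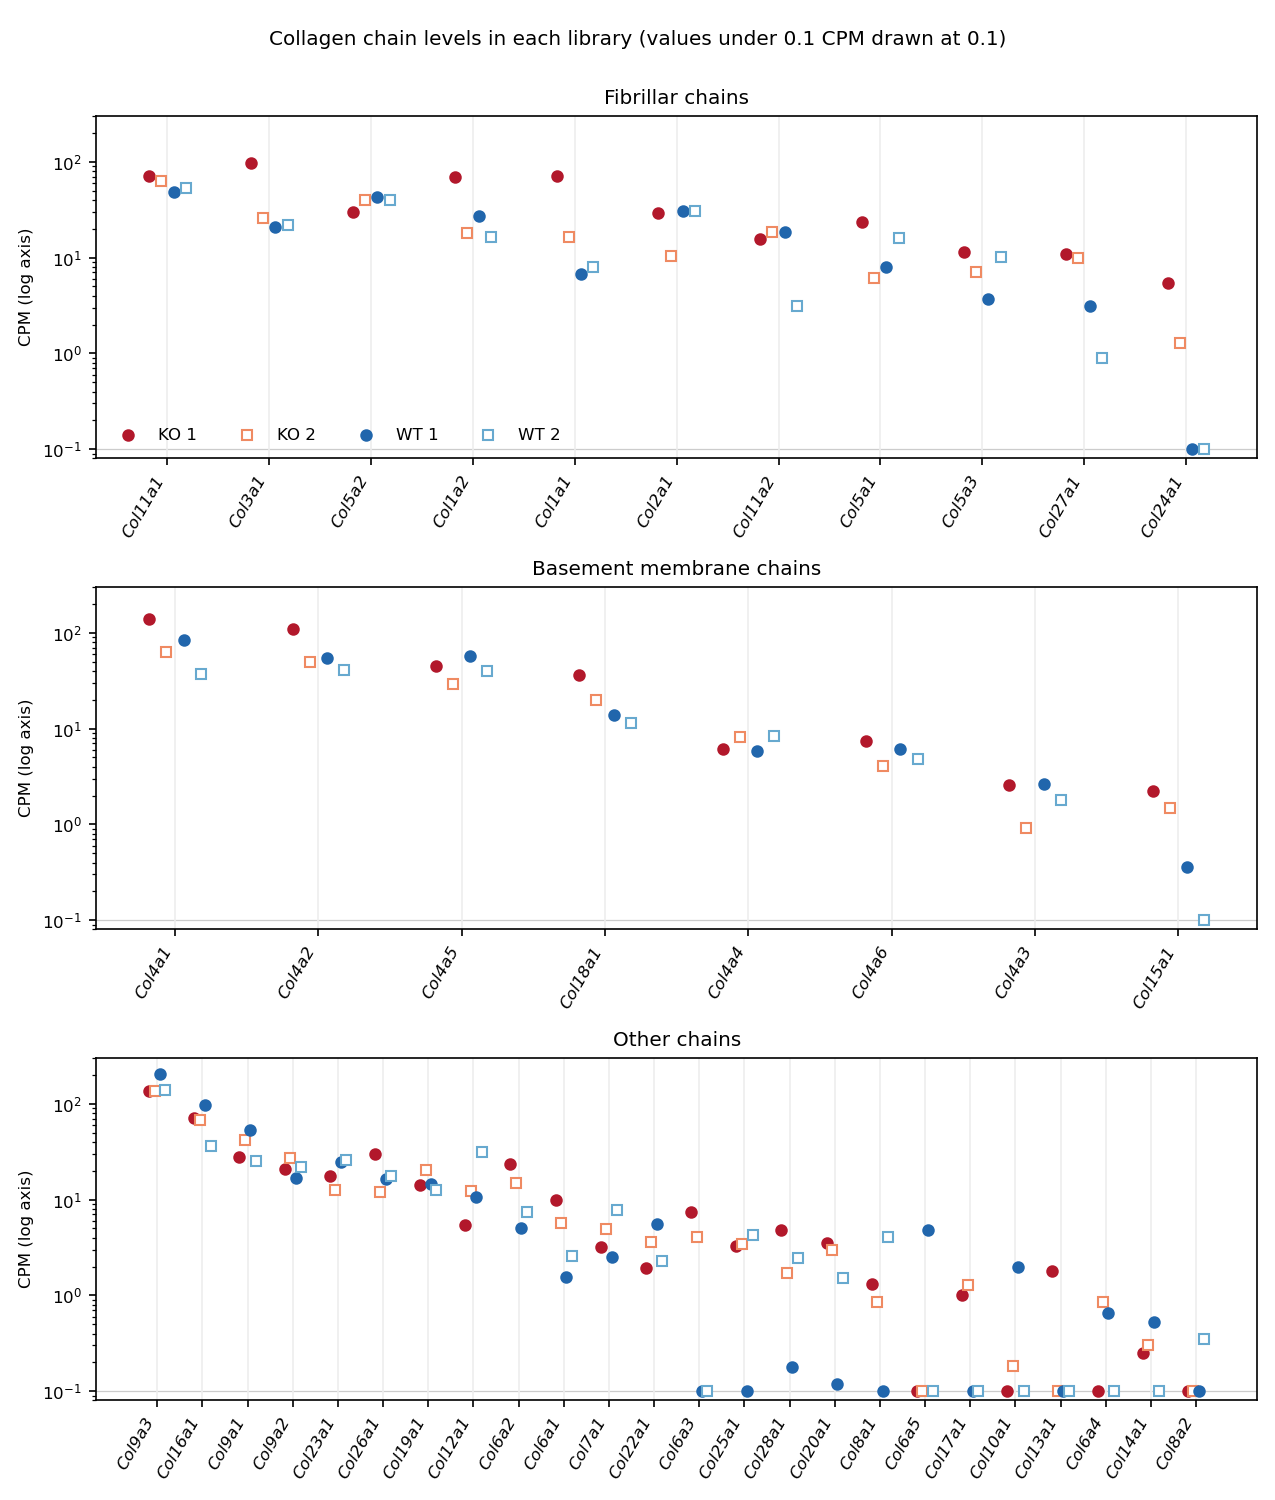
CPM on a log axis (y) for each collagen chain (x), in 3 panels by class and ordered by mean level. Each point is 1 library (red, KO 1; open orange, KO 2; blue, WT 1; open light blue, WT 2), and values under 0.1 CPM are drawn at 0.1. In Col3a1, Col1a2, Col1a1 and Col24a1 the point of KO 1 stands apart above the other 3 libraries, while Col9a3 and Col11a1 differ little.

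The windows around 3 starts are shown for chains that were highest in the library labelled KO 1, and capitals mark motif matches on either strand. The letters searched were TATAAA for the TATA box. For the CCAAT box they were those of its name, and for the GC box they were GGGCGG. No motif overlaps another in its letters. Col1a2 covers chr6:4505368-4505667 on the plus strand, Col3a1 chr1:45311288-45311587 on the plus strand and Col6a3 chr1:90843922-90844221 on the minus strand (RefSeq, GRCm38.p6). The RefSeq start of Col1a2 lies inside the gene as the files place it.
Col1a2: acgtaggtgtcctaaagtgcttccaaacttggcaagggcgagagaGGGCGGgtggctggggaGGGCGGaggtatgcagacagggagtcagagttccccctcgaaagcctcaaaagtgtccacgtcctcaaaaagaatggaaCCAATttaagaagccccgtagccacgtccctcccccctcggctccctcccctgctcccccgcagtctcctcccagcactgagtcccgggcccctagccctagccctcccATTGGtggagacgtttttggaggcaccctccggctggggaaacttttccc
Col3a1: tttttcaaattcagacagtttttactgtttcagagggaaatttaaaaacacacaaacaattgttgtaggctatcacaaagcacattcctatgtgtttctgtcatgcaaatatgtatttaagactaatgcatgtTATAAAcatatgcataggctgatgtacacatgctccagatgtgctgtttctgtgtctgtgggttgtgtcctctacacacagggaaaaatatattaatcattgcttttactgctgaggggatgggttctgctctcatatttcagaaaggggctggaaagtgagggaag
Col6a3: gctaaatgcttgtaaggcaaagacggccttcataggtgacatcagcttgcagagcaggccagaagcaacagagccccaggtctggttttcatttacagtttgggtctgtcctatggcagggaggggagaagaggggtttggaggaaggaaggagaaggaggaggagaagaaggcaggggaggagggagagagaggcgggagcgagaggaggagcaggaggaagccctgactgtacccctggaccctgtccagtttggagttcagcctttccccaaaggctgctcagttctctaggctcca
The Col1a2 window held a CCAAT match that begins 109 bases before the start, another on the opposite strand at the start, and GC matches that begin 205 and 188 bases before it, the Col3a1 window a TATA match that begins 117 bases before it, and the Col6a3 window none of these letters. RefSeq windows were matched for 34 of the 43 chains. Of the 37 windows of those 34 genes, 5 held a TATA match, 13 a CCAAT match and 22 a GC match. Of all 32851 windows, 13.6%, 37.4% and 35.7% held these motifs. Col1a2 and Col3a1, both highest in KO 1, shared none of the 3 motifs in these windows. A match describes letters only.

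Among the fibrillar chains, the type I and type III genes were highest by far in 1 library. Col1a1 (ENSMUSG00000001506, chr11:94936224-94953042, plus strand, GRCm38), which encodes the alpha 1 chain of type I collagen, was measured at 71.6 CPM in the library labelled KO 1, 16.4 CPM in KO 2, 6.81 CPM in WT 1 and 7.995 CPM in WT 2. The groups did not overlap, but KO 1 was 4.36-fold above KO 2, a larger gap than the 2.22-fold between KO 2 and the WT mean. The fitted log2 fold change was 2.57 ± 0.69 (SE, edgeR adjusted p = 0.427, DESeq2 adjusted p = 6.82e-04). It was 1.15 when KO replicate 1 was left out and 3.27 when KO replicate 2 was.

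Its partner Col1a2 (chr6:4504814-4541544, plus strand), the alpha 2 chain of the same molecule, was measured at 69.9 CPM in KO 1, 18.0 CPM in KO 2, 27.1 CPM in WT 1 and 16.5 CPM in WT 2. Only the library labelled KO 1 was high, and KO 2 lay between the WT libraries. The log2 fold change of Col1a2 was 1.01 ± 0.64 (SE, edgeR adjusted p = 0.784) and turned to -0.27 without KO replicate 1. Per length, Col1a1 stood to Col1a2 at 1.94 in KO 1, 1.73 in KO 2, 0.475 in WT 1 and 0.919 in WT 2. The ratio of the type I chains was thus higher in both libraries labelled KO than in either WT library, including KO 2, whose Col1a2 level lay between those of the WT libraries. With 2 libraries a group an exact permutation test cannot go below p = 0.333, so the difference was not tested.

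Col3a1 (chr1:45311538-45349706, plus strand), the chain of type III collagen that accompanies type I in vessel walls and meninges, was measured at 97.7 CPM in KO 1, 25.8 CPM in KO 2, 21.0 CPM in WT 1 and 21.6 CPM in WT 2. The groups did not overlap, yet KO 2 was only 1.21-fold above the WT mean, against 4.58-fold for KO 1. Its log2 fold change was 1.53 ± 0.60 (SE, edgeR adjusted p = 0.578), and 0.28 without KO replicate 1. Col5a2, which starts the assembly of type I fibres together with Col5a1, is the neighbour of Col3a1 on the opposite strand, 24614 bp away. Its values of 29.6 CPM in KO 1, 39.9 CPM in KO 2, 42.8 CPM in WT 1 and 39.7 CPM in WT 2 did not show the high value of KO 1 (log2 fold change -0.25 ± 0.24 SE). Col5a1 did, with 23.5 CPM in KO 1 against 6.13 CPM in KO 2, 7.88 CPM in WT 1 and 15.9 CPM in WT 2, and its log2 fold change went from 0.32 to -0.95 without KO replicate 1 and to -0.10 without WT replicate 1.

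The fibrillar chains known mainly from cartilage behaved otherwise. Col11a1, a chain that sets the diameter of fibres, was measured at 71.4 CPM in KO 1, 63.5 CPM in KO 2, 48.0 CPM in WT 1 and 53.6 CPM in WT 2. Both libraries labelled KO were higher by a small margin (log2 fold change 0.41 ± 0.19 SE, edgeR adjusted p = 0.652), and no 1 library moved it below 0.32 when left out. Its partner Col11a2 had 15.4, 18.3 and 18.4 CPM in KO 1, KO 2 and WT 1 but 3.13 CPM in WT 2. The log2 fold change of Col11a2 was 0.65, but 2.43 without WT replicate 1 and -0.12 without WT replicate 2. Col2a1, the type II chain, had a similar level in KO 1 and both WT libraries (29.3, 30.5 and 30.5 CPM) and a lower one in KO 2, at 10.4 CPM.

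Col27a1 encodes a minor fibrillar chain of developing cartilage. It was measured at 10.9 CPM in KO 1, 9.81 CPM in KO 2, 3.14 CPM in WT 1 and 0.904 CPM in WT 2. Here both libraries labelled KO were alike, and the WT libraries were lower and differed 3.47-fold. Its log2 fold change of 2.34 ± 0.70 (SE, edgeR adjusted p = 0.455) ran from 1.72 without WT replicate 2 to 3.51 without WT replicate 1 and was 2.27 without KO replicate 1. Col24a1, another minor fibrillar chain, had 87 counts in KO 1, 21 in KO 2 and 0 in both WT libraries. Its mean in the libraries labelled KO was 17.4-fold above a floor of 3 counts per WT library (edgeR adjusted p = 0.357, DESeq2 adjusted p = 0.00858). With KO 2 alone it was 6.67-fold above that floor. Col24a1 passed the filter only through the libraries labelled KO. Col5a3, a type V chain, had values from 3.67 to 11.4 CPM with overlapping groups.

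Among the basement membrane chains, Col4a1 and Col4a2 encode the chains of the type IV collagen found in nearly all basement membranes. Their genes lie head to head on chromosome 8 (chr8:11198423-11312826, minus strand, and chr8:11312805-11449287, plus strand, GRCm38), so that the first 22 bp overlap. The RefSeq windows of 300 bases around their starts (GRCm38.p6, 250 bases before to 50 after) share 78 bases. Both windows are printed here because the genes moved together across libraries, each on its own strand from 5′ to 3′, and capitals mark the shared bases, which read as reverse complements of each other. They cover chr8:11312777-11313076 for Col4a1 and chr8:11312555-11312854 for Col4a2.
Col4a1: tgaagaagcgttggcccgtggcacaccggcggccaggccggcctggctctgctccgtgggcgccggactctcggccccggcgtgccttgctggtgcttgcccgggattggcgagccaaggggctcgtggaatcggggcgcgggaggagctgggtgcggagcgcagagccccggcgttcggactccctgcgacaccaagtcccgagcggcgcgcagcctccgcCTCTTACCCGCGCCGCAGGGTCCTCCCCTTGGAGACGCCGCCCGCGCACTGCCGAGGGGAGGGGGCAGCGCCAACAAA
Col4a2: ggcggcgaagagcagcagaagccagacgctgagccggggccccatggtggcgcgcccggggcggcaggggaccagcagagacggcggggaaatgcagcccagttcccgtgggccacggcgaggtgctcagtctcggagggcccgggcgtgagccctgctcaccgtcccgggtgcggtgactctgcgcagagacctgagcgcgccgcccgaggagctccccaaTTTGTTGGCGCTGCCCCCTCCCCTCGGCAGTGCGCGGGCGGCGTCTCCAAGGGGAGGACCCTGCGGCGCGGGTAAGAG

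Col4a1 was measured at 138 CPM in KO 1, 63.3 CPM in KO 2, 83.5 CPM in WT 1 and 37.1 CPM in WT 2. Col4a2 was measured at 110 CPM in KO 1, 49.2 CPM in KO 2, 54.8 CPM in WT 1 and 41.2 CPM in WT 2. Both genes had the same order of libraries, with KO 1 highest, then WT 1, KO 2 and WT 2, and in both the groups overlapped. The log2 fold changes of 0.74 ± 0.50 and 0.73 ± 0.40 (SE; edgeR adjusted p = 0.806 and 0.730) became 0.074 and 0.041 without KO replicate 1. That of Col4a1 was also 1.45 without WT replicate 1 and 0.27 without WT replicate 2. Per length, Col4a1 stood to Col4a2 at 1.12, 1.14, 1.35 and 0.798 in KO 1, KO 2, WT 1 and WT 2, a narrower range than for the type I chains. Whether strand was used in counting is not given, and without it reads from the shared 22 bp cannot be assigned to either gene.

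The other type IV chains lie in the same head-to-head order, Col4a4 with Col4a3 on chromosome 1 and Col4a6 with Col4a5 on the X chromosome. They belong to specialised basement membranes such as that of the kidney glomerulus. Col4a5 was measured at 45.4 CPM in KO 1, 29.4 CPM in KO 2, 57.6 CPM in WT 1 and 39.8 CPM in WT 2, so unlike Col4a1 it was not highest in KO 1 (log2 fold change -0.38 ± 0.31 SE, edgeR adjusted p = 0.851). Col4a6, its neighbour 1308 bp away, lay between 4.05 and 7.37 CPM, and per length Col4a5 exceeded it by between 7.30-fold and 11.3-fold. Col4a4 lay between 5.87 and 8.27 CPM and Col4a3 between 0.920 and 2.67 CPM, with overlapping groups (log2 fold changes 0.021 ± 0.46 and -0.36 ± 0.95, SE).

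Col18a1 and Col15a1 encode collagens of vascular basement membranes, and the end fragment of the former is endostatin. Col18a1 was measured at 36.4 CPM in KO 1, 20.1 CPM in KO 2, 13.8 CPM in WT 1 and 11.4 CPM in WT 2. Each library labelled KO exceeded each WT library, and the log2 fold change of 1.16 ± 0.37 (SE, edgeR adjusted p = 0.468) was 0.67 without KO replicate 1. Col15a1 was low, with 36 counts in KO 1, 24 in KO 2, 6 in WT 1 and 0 in WT 2. It passed the filter only through the libraries labelled KO, so its direction was fixed by the filter.

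Among the other chains, of the 4 tested type VI chains, Col6a1, Col6a2 and Col6a3 had higher values in both libraries labelled KO than in both WT libraries. Over all tested genes 21.2% did so. Col6a3 passed the filter only through the libraries labelled KO, which fixed its direction. Of the 4 chains 0 passed the edgeR test. Type VI collagen assembles from the Col6a1 and Col6a2 chains and another, most often Col6a3, into beaded filaments that link cells to the basement membrane. Col6a2 (chr10:76595762-76623630, minus strand) was measured at 23.4 CPM in KO 1, 14.8 CPM in KO 2, 5.04 CPM in WT 1 and 7.37 CPM in WT 2. Col6a1 was measured at 9.87 CPM in KO 1, 5.70 CPM in KO 2, 1.54 CPM in WT 1 and 2.57 CPM in WT 2. In both genes the groups did not overlap, and KO 2 stood 2.38-fold (Col6a2) and 2.77-fold (Col6a1) above the WT mean. Their log2 fold changes were 1.62 ± 0.42 and 1.92 ± 0.62 (SE; edgeR adjusted p = 0.389 and 0.473), and 1.26 and 1.47 without KO replicate 1.

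Col6a3 (chr1:90765923-90843971, minus strand) had 118 counts in KO 1, 66 in KO 2 and 0 in both WT libraries. A floor of 3 counts corresponds to 0.177 CPM in WT 1 and 0.211 CPM in WT 2. The mean of Col6a3 in the libraries labelled KO was 29.6-fold above that floor (edgeR adjusted p = 0.199, DESeq2 adjusted p = 1.74e-04), or 20.95-fold with KO 2 alone. In the libraries with counts its level per length was below that of Col6a1, which exceeded it 3.66-fold in KO 1 and 3.85-fold in KO 2. Col6a3 passed the filter only through the libraries labelled KO. Of the remaining type VI genes, Col6a4 had 14 counts in KO 2, 11 in WT 1 and 0 in the other libraries. Col6a5 had 81 counts in WT 1, 0 in both libraries labelled KO and no listed count in WT 2, and Col6a6 was not listed.

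Of the fibril-associated chains, those of types IX and XVI were the most abundant. Col9a3 was measured at 137 CPM in KO 1, 136 CPM in KO 2, 202 CPM in WT 1 and 139 CPM in WT 2. Only WT 1 was higher than the rest, and the log2 fold change of -0.32 ± 0.20 (SE, edgeR adjusted p = 0.786) went to -0.021 without WT replicate 1. Its partners Col9a1 and Col9a2 ran from 25.5 to 52.9 CPM and from 16.9 to 27.3 CPM with overlapping groups. Per length, Col9a3 exceeded Col9a1 by between 4.21-fold and 7.15-fold and Col9a2 by between 3.99-fold and 9.61-fold. Col16a1, which associates with fibres and basement membranes, was measured at 70.6 CPM in KO 1, 67.4 CPM in KO 2, 96.1 CPM in WT 1 and 36.3 CPM in WT 2. The WT libraries thus spread 2.65-fold around the libraries labelled KO, and the log2 fold change was 0.058 ± 0.44 (SE).

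Col23a1, a transmembrane collagen, was the chain with the smallest unadjusted p (0.0472) among those lower in the libraries labelled KO. It was measured at 17.7 CPM in KO 1, 12.5 CPM in KO 2, 24.5 CPM in WT 1 and 26.0 CPM in WT 2. Both libraries labelled KO lay below both WT libraries, with a log2 fold change of -0.74 ± 0.29 (SE, edgeR adjusted p = 0.587) that stayed between -1.01 and -0.51 when any 1 library was left out. Col17a1, a transmembrane collagen of epithelial anchoring, had 16 counts in KO 1, 21 in KO 2 and 0 in both WT libraries. Its mean in the libraries labelled KO was 5.92-fold above a floor of 3 counts per WT library (edgeR adjusted p = 0.459). It also passed the filter only through the libraries labelled KO. The remaining tested chains of this class (Col26a1, Col19a1, Col12a1, Col7a1, Col22a1, Col25a1, Col28a1, Col20a1 and Col8a1) had mean levels below 20 CPM and log2 fold changes from -1.24 (Col12a1) to 1.98 (Col20a1), each with an edgeR adjusted p of at least 0.707. Besides Col6a5, 4 chains were left untested for low counts. Col13a1 had 29 counts in KO 1 and Col10a1 33 counts in WT 1, each with at most 4 in any other library. Col14a1 had at most 9 counts and Col8a2 at most 5 in any library.

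The classes are compared here by counts and medians, which were not tested. The median log2 fold change was 0.65 in fibrillar chains (9 of 11 above 0), 0.40 in basement membrane chains (6 of 8) and 0.32 in other chains (12 of 19). Over all tested genes the median was -0.00027 and 50.0% were above 0. With the 4 chains left out that passed the filter only through the libraries labelled KO (Col24a1, Col15a1, Col6a3 and Col17a1), the medians were 0.54, 0.074 and 0.28. Then 8 of 10, 5 of 7 and 10 of 17 chains were above 0, since the filter had fixed the direction of the 4 left out. Each KO value exceeded each WT value for 12 of 38 chains and below for 3, where 21.2% and 18.4% of all tested genes did so, and without those 4 chains for 8 and 3 of 34. Without KO replicate 1 the medians were 0.28, 0.057 and 0.11, and 24 of the 40 chains then tested were above 0.

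**Figure D2:**
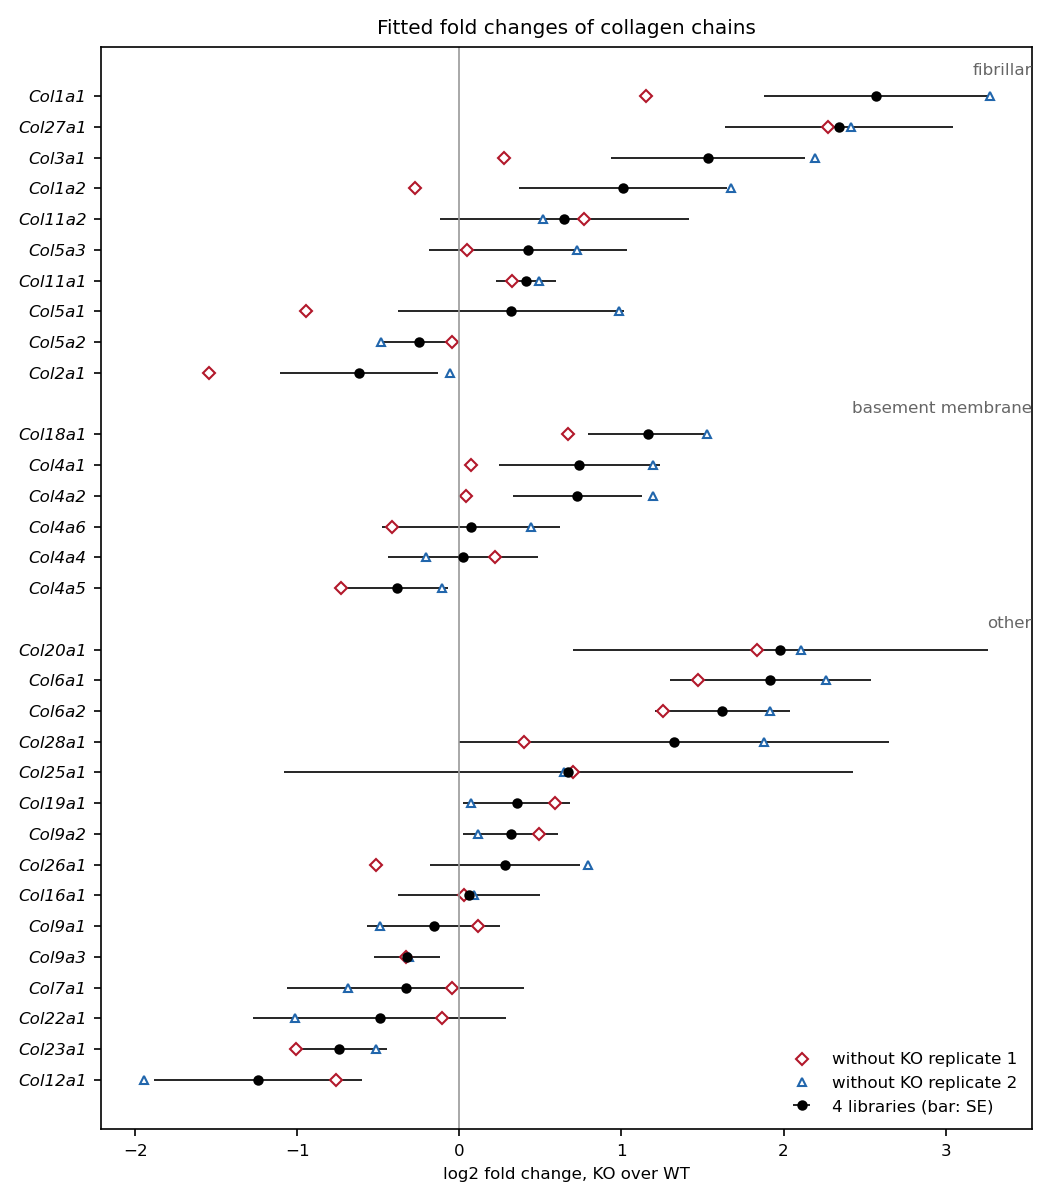
Fitted log2 fold change of the libraries labelled KO over WT (x) for the 31 tested chains with a mean of at least 2 CPM and a count in WT (y, grouped by class). Black points and bars give the fit to all 4 libraries and its SE, red diamonds the fit without KO replicate 1 and blue triangles that without KO replicate 2. For Col1a1, Col3a1, Col1a2, Col5a1, Col4a1 and Col4a2 the diamond lies well to the left of the black point, while for Col27a1, Col11a1 and Col9a3 the 3 symbols lie close together.

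What the fibrillar and basement membrane chains shared, with some of the other chains, was the library labelled KO 1. It held the highest value of the 4 libraries for 8 of 11 fibrillar chains, 5 of 8 basement membrane chains and 6 of 19 other chains, where 25.2% of all tested genes were highest in KO 1. It was at least 2-fold above every other library for 4 fibrillar chains (Col1a1, Col1a2, Col3a1 and Col24a1), 1 basement membrane chain (Col4a2) and 0 other chains, where 1.99% of all tested genes were. KO 1 exceeded both WT libraries for 20 of the 38 chains and KO 2 for 15, where 34.5% and 33.0% of all tested genes did so, and KO 1 exceeded KO 2 for 26, against 49.7%. Over the 34 chains that passed the filter through both groups, KO 1 was highest for 7 of 10 fibrillar, 4 of 7 basement membrane and 5 of 17 other chains, and at least 2-fold above every other library for 4 chains. KO 1 then exceeded both WT libraries for 16 of 34 and KO 2 for 11 of 34 (32.4%), the latter near the share over all genes. The median ratio of KO 1 to KO 2 was 2.81 in fibrillar, 1.82 in basement membrane and 1.01 in other chains, and 0.996 over all tested genes. Among the other chains it was 1.66 in the 4 tested type VI chains, 2.645 in Col26a1 and Col28a1 and 0.73 in the 8 tested fibril-associated chains. KO 1 was highest for 3 (Col6a3 included), 2 and 1 of these, and for 0 of the transmembrane chains, Col7a1 and Col8a1. Summed CPM of fibrillar chains was 436 in KO 1 and between 200 and 217 in the other libraries. That of basement membrane chains was 348 in KO 1, 177 in KO 2, 225 in WT 1 and 144 in WT 2. Other chains summed to 386, 374, 457 and 343 CPM, with KO 1 between the WT libraries. As a share of all collagen signal per length, fibrillar chains made up 27.1% in KO 1 and between 14.4% and 18.6% in the other libraries.

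Sums of vessel and meningeal markers were also highest in KO 1, though not every marker was. The 12 endothelial markers summed to 599 CPM in KO 1, 302 CPM in KO 2, 186 CPM in WT 1 and 70.7 CPM in WT 2, and all 12 were higher in both libraries labelled KO than in both WT libraries, where 21.2% of all tested genes were, with 0 of them at 0 in any library. The most abundant was Cldn5, a tight junction gene of brain endothelium, at 273, 136, 78.3 and 24.4 CPM in KO 1, KO 2, WT 1 and WT 2. The order of libraries in this sum was that of Col18a1 (36.4, 20.1, 13.8 and 11.4 CPM) and of the low counts of Col15a1, whose direction the filter fixed. It was not that of Col4a1 and Col4a2, in which WT 1 exceeded KO 2, nor that of Col4a3, Col4a4, Col4a5 or Col4a6. Mural markers (pericytes and smooth muscle), of which 10 of 12 were tested, summed to 1017 and 654 CPM in KO 1 and KO 2 and to 608 and 539 CPM in WT 1 and WT 2. Of these, Notch3 (log2 fold change -0.22) and Pdgfrb (-0.23) had lower means in the libraries labelled KO, Tagln held 0 counts in KO 1 and Myh11 was not listed.

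Fibroblast and meningeal markers summed to 670 CPM in KO 1, 546 CPM in KO 2, 530 CPM in WT 1 and 560 CPM in WT 2. Of the 12 in this list 10 were tested and 8 were highest in KO 1, where 25.2% of all tested genes were. KO 2 lay between the WT libraries in this sum, and Igfbp2 (log2 fold change -0.16) and Islr (-0.077) had lower means in the libraries labelled KO. The list's most abundant gene is Pdgfra, which oligodendrocyte precursors also express. Dcn, the fibroblast proteoglycan decorin, chosen after its values were seen, was measured at 47.6 CPM in KO 1, 4.84 CPM in KO 2, 1.13 CPM in WT 1 and 12.3 CPM in WT 2. Foxc1 held 0 counts in WT 1 and Slc22a6 in WT 2, while Foxd1 and Twist1 were not listed. Microglia markers summed to 4465 CPM in KO 1, 3765 CPM in KO 2, 839 CPM in WT 1 and 1223 CPM in WT 2. All 12 were higher in both libraries labelled KO (21.2% of all tested genes), 11 of them were highest in KO 1 (25.2%), and 1 was called higher (0.017%). The part of these cells in the collagen values was not tested. In bulk libraries, more cells of a type and more RNA per cell cannot be told apart.

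**Figure D3:**
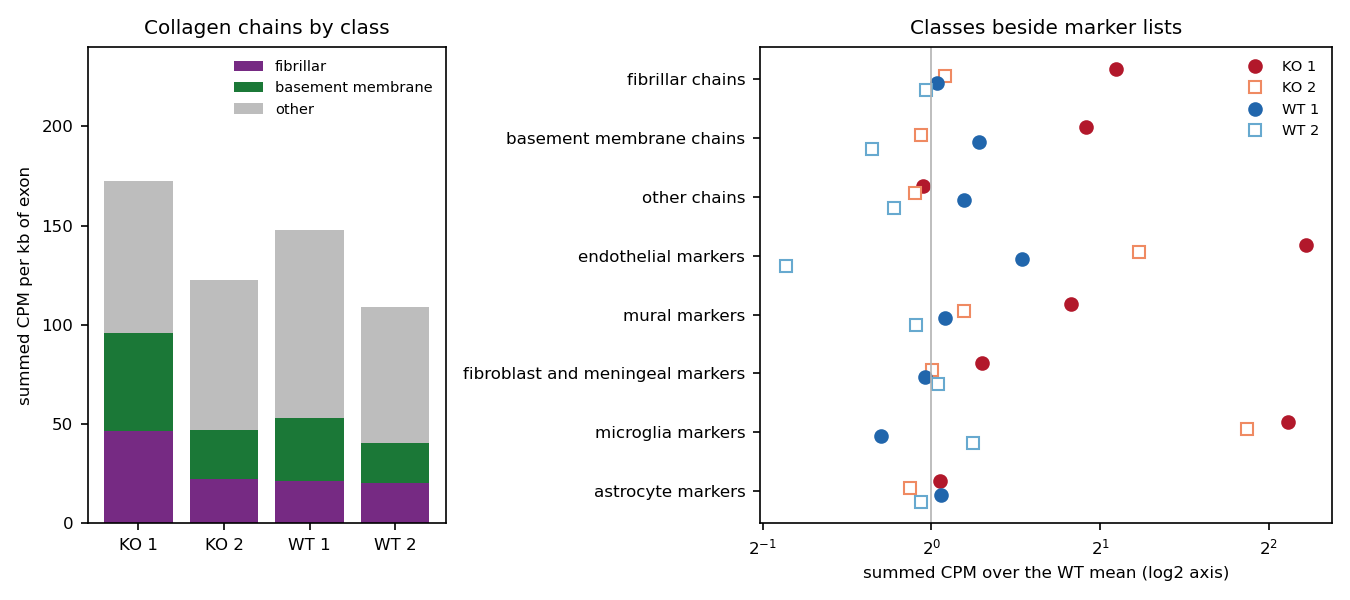
Left, summed CPM per kb of exon (y) of the 3 collagen classes, stacked for each library (x). Right, summed CPM of each class and of 5 marker lists divided by the mean of the WT libraries (x, log2 axis), with 1 point per library. Fibrillar and basement membrane chains are highest in KO 1, as are the endothelial, mural, fibroblast and microglia lists. In KO 2 the endothelial and microglia lists are also above both WT libraries, as are, by a small margin, the mural list and the fibrillar chains.

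Chain ratios show which partners kept step, and they need no scaling between libraries. The ratio Col4a1 to Col4a2 and the ratio Col6a2 to Col6a1, the latter between 1.25 and 1.72 per length, varied by less than that of the type I chains. So did the ratios Col4a5 to Col4a6 (7.30 to 11.3), Col9a3 to Col9a1 (4.21 to 7.15) and Col9a3 to Col9a2 (3.99 to 9.61). The ratio Col4a4 to Col4a3 ran from 2.07 to 8.39. The ratio Col5a2 to Col5a1 was 1.11 in KO 1 and 5.76 in KO 2, with 4.81 and 2.22 in WT 1 and WT 2. In KO 1, therefore, Col5a1 was high relative to its partner. The ratio Col11a1 to Col11a2 was 9.24 in WT 2 and between 1.41 and 2.50 in the other libraries. Of the 9 ratios plotted, 3 separated the groups without overlap: Col1a1 to Col1a2 was higher in the libraries labelled KO, and Col6a2 to Col6a1 and Col4a5 to Col4a6 were lower. Among single tested genes 21.2% lay above and 18.4% below without overlap, so this count is no result about chain partners.

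**Figure D4:**
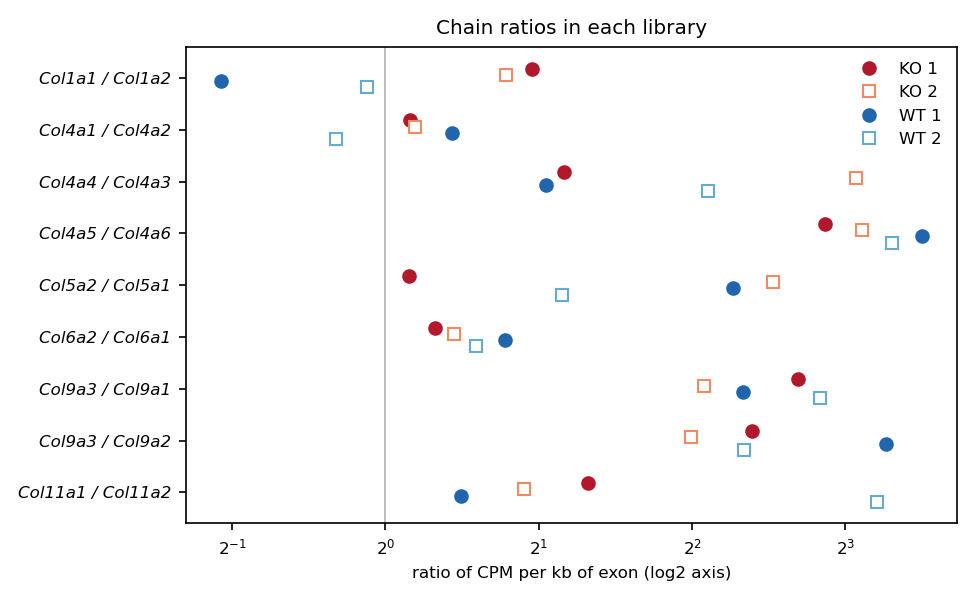
Ratio of CPM per kb of exon (x, log2 axis) for 9 pairs of chains that share a molecule or a head-to-head locus (y), with 1 point per library. Col1a1 to Col1a2 lies at 1.73 and 1.94 in the libraries labelled KO and at 0.475 and 0.919 in WT, while Col4a1 to Col4a2 stays between 0.798 and 1.35.

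Of the 31 enzymes, chaperones and cross-linkers in the list of collagen processing genes, 30 were tested, 0 were called, 17 had a log2 fold change above 0 (50.0% of all tested genes), and the median was 0.094. KO 1 was the highest library for 13 of the 30, against 25.2% of all tested genes. At an unadjusted p under 0.05, 2 were higher and 0 lower, a share near the 5.88% and 2.41% of all tested genes. The 2 were Plod1, a lysyl hydroxylase, at 195 CPM in KO 1, 176 CPM in KO 2, 121 CPM in WT 1 and 79.5 CPM in WT 2 (log2 fold change 0.88 ± 0.22 SE, edgeR adjusted p = 0.389), and Colgalt1, which attaches galactose to hydroxylysine (0.45 ± 0.17, adjusted p = 0.550). Both were higher in each library labelled KO, and Colgalt1 was highest in KO 2. The abundant P4hb, a subunit of prolyl hydroxylase, lay between 273 and 298 CPM, and Mia3, which loads procollagen for export, between 107 and 122 CPM. Plod2, another lysyl hydroxylase, was lower in both libraries labelled KO (-0.52 ± 0.26, adjusted p = 0.691).

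Of 10 collagen receptors 8 were tested and 0 called. Itgb1, the beta subunit of the collagen-binding integrins, lay between 389 and 419 CPM, and Ddr1, a receptor tyrosine kinase for collagen, between 161 and 214 CPM, with overlapping groups. Lair1, an inhibitory collagen receptor of immune cells, was measured at 39.2 CPM in KO 1, 54.3 CPM in KO 2, 16.8 CPM in WT 1 and 20.6 CPM in WT 2. It was the receptor with the smallest p (log2 fold change 1.32 ± 0.27 SE, edgeR adjusted p = 0.295) and was higher in both libraries labelled KO. The 12 microglia markers were too, but 11 of them were highest in KO 1 and Lair1 was highest in KO 2. Any link between them was not tested. Mrc2, an endocytic receptor for collagen, had a log2 fold change of 0.88 ± 0.65 (SE) that became -0.023 without KO replicate 1. Ddr2, another receptor kinase, stood at -0.30 ± 0.26.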

How the data were processed

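The authors deposited 4 tables, each with whole-number counts per gene for 1 library titled KO and 1 titled WT, per the file headers. Bowtie2 2.2.3, TopHat2 2.0.12 and HTSeq 0.6.0 are named in the submitters' processing notes with no roles, and no source used here gives strand use. The notes name the build mm9, but 21279 of 23475 gene positions, and 42 of 43 collagen positions (not that of Col20a1), were identical to GENCODE M21 on GRCm38, so coordinates are on GRCm38.

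The tables were joined by gene. Each table lists genes counted in both of its libraries, or at 0 in 1 and at least 5 in the other, so a count missing from the tables of a library is at most 4 and was set to 0. No blank or summary rows were present. Library totals were 14224519 to 16961160 counts, and replicates differed by more than sampling noise (chi-square per gene 21.7 and 32.8 within groups). KO was compared with WT by edgeR 4.0.16 (R 4.3.3; TMM, filterByExpr at a minimum count of 10, quasi-likelihood test with 2 residual degrees of freedom, Benjamini-Hochberg over 17696 genes). SEs are the fold change divided by the root of F. The fit was tested on simulated data, where it called 11 of 99 genes with a 2-fold change and 57 of 98 with a 4-fold change. Of 16471 unchanged genes it called 3. A gene that was not called is therefore not shown to be unchanged. Alternatives were DESeq2 1.42.0, limma-voom 3.58.1, other scalings and filters, a replicate block and each library left out in turn, and unlisted counts at 4 were added after seeing the data. Intervals and floors cover counting error only.

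Collagen chains were named if they were among the 5 most abundant or 3 smallest p of a class, or partners of these, and processing and receptor genes if among the 3 most abundant or 3 smallest p of their list. The members, classes and lists were chosen with earlier results of these data known. Chains outside this rule are given so that each member is accounted for.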

Additional observations from a re-analysis of the deposited data

How the results depend on the processing

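Collagen chains called higher numbered 0 under each alternative but DESeq2, which called 3, and those called lower numbered 0 under each. Over all genes the calls moved from 3 higher and 0 lower to 316 and 57 with DESeq2, 25 and 3 with limma-voom, 52 and 4 with no filter on low counts, and 63 and 5 with only genes averaging at least 5 CPM; leaving out 1 library gave 0 to 41 higher and 0 to 1 lower. The cause was not tested. With the replicate number as a block the fit called 4 genes higher and 0 collagen chains. No label says what the replicate numbers mean. The deviations of same-numbered libraries correlated at 0.0447 across 17553 genes, a value that cannot exclude a pairing.

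The medians of the classes kept their sign under each alternative. When 1 library was left out, the fibrillar median ran from 0.28 (without KO replicate 1) to 1.42 (without WT replicate 1), the basement membrane median from 0.057 (without KO replicate 1) to 0.82 (without KO replicate 2), and the median of other chains from 0.09 to 0.43. The median of the processing genes was 0.094, turned to -0.052 at a mean CPM of at least 5, where 21 genes remained, and ran from -0.0062 (without KO replicate 1) to 0.17. Of the named chains, log2 fold changes turned sign only when a library was left out, in 4 chains without KO replicate 1, 2 chains without KO replicate 2, and 3 chains without WT replicate 1 and as many without WT replicate 2. The ranges were -0.12 to 2.43 for Col11a2, -0.48 to 0.93 for Col16a1, -0.27 to 1.68 for Col1a2, -1.27 to 0.19 for Col4a3, -0.21 to 0.29 for Col4a4, -0.42 to 0.44 for Col4a6, -0.95 to 0.99 for Col5a1 and -0.59 to 0.46 for Col9a1. For chains with few counts the depth limits precision, and 5 chains were left untested for low counts.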
